A study of Mus musculus with 6 samples.

Results

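Microglia are the resident macrophages of the brain, and a small number of them lie among the neurons of every layer. The genes described here are 32 that microglia and other macrophages are known to express and that neurons express little or not at all. They were looked up by symbol in the annotation of the array, which pairs 31 of the 32 with a probe set of their own, out of 19938 genes tested. Lyn, a Src family kinase, was not analysed here. RNA came from the granule cell layer of the dentate gyrus (DG), cut out by laser capture microdissection from cryosections stained with cresyl violet, and was hybridized to 1 one-colour Affymetrix whole-transcript array per sample. The 3 mutant samples were from mice with Bcl11b flox/flox alleles, tetO-Cre and CaMKIIα-tTA. Neither the labels nor the methods give the genotype of the 3 control samples of this line, or the strain. Mice of this line drank doxycycline from embryonic life until they were 2 months old, and both groups were sampled 4 weeks after induction. In this tet-off line the CaMKIIα promoter, which is active in excitatory forebrain neurons, drives the transactivator that switches on Cre, so the deletion is aimed at neurons and not at microglia. The dissected layer holds the cells that lie between granule cells, and no step that removes them is described.

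In the healthy brain microglia survey their surroundings through receptors for nucleotides, chemokines and lipids, and they depend on the receptor Csf1r and the transcription factors Spi1 (PU.1) and Irf8. They take up debris and synaptic material that is tagged with complement, whose first component C1q is made in the brain mainly by microglia. Many of their receptors have no signaling tail and signal through the adaptors Tyrobp (DAP12) and Fcer1g. The deposited values are log2 levels after robust multiarray averaging (RMA), so a difference of 1 is a fold of 2 and a log2 change is the mutant mean minus the control mean. Bcl11b itself was lower in every mutant array, at 10.30 to 10.56 in controls and 8.68 to 9.03 in mutants (limma adjusted p = 2.56e-05). The 12 markers of granule cells had mean levels of 9.10 to 12.36. Of the 31 microglia and macrophage genes, with mean levels of 4.57 to 8.33, 20 lay under the median of all genes tested (7.06). The files hold no detection calls, so none of the 31 was shown to be above background. Because the layer is a mixture, fewer microglia and less RNA per microglial cell cannot be told apart in these values. The array of control 3 stood above the others in most of the 31 genes, so most changes are also given without it. That choice was made from these same values. Control 1 was the lowest control in most of the genes, and leaving it out instead made the median change more negative, as given below.

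Of the 31 genes, 3 fell in the mutant, the surface protein gene Tmem119, Ly86, which encodes a partner of a toll-like receptor relative, and the integrin subunit gene Itgb2, and 28 did not pass the test (limma, Benjamini-Hochberg adjustment over all genes, threshold 0.05). Of all genes tested, 5.93% were called lower, which is near the share of 3 in 31. None was called higher by limma, where 9.23% of all genes were. At an unadjusted p under 0.05, 0 had a positive change, where 3107 of the 19938 genes tested did. The methods' t-test, the unpaired test that the study names for group comparisons, also called 0 higher after adjustment. For its arrays the study names BRB-ArrayTools, without a test or an adjustment. In the lower direction 8 genes had an unadjusted p under 0.05, as had 2312 of all 19938. The sign of the change was negative in 30 of 31 genes, and in 51.0% of all genes. The exception was Lyz2, at 0.07. The median log2 change over the 31 genes was -0.12, beside -0.0027 over all genes. Groups did not overlap in 6 genes, whose 3 mutant values all lay under the lowest control value, as they did in 14.6% of all genes. Beside the 3 that passed the test these were Fcrls, Gpr34 and Itgam. No gene was higher in every mutant array, where 17.0% of all genes were.

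**Figure D1:**
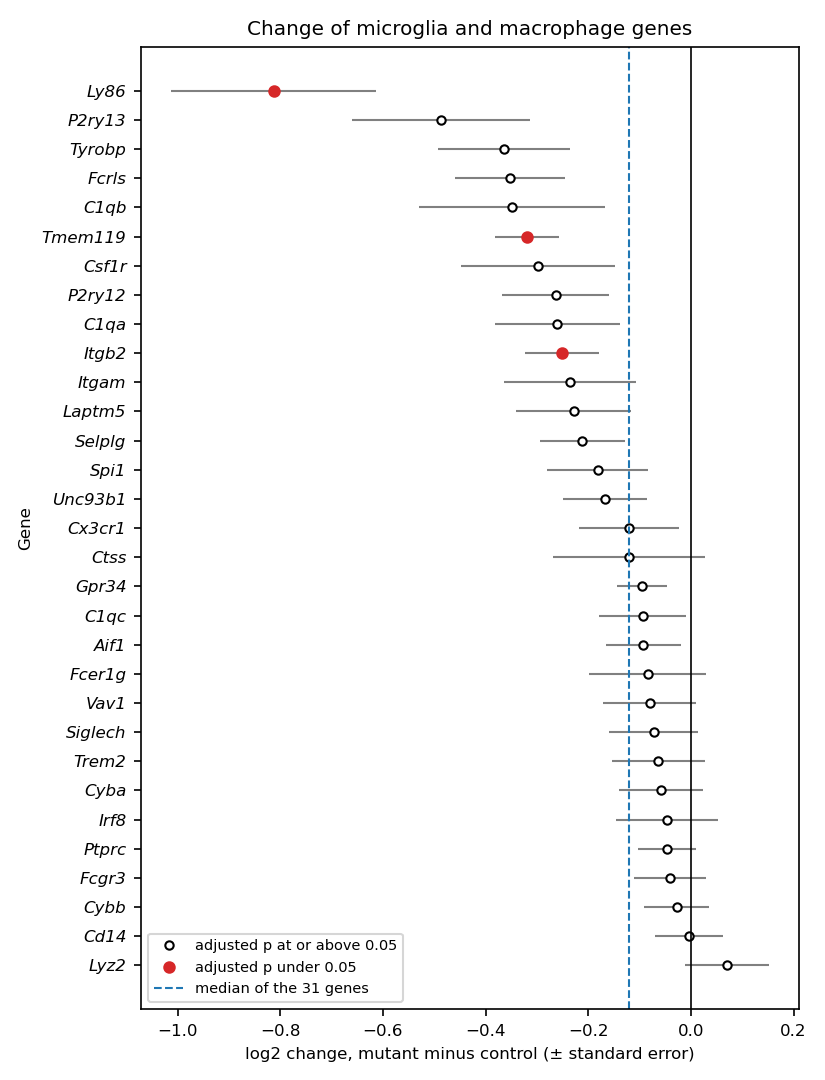
Log2 change of the 31 microglia and macrophage genes, mutant minus control, on the horizontal axis, with bars for the standard error (n = 3 arrays per group). Filled red circles are the 3 genes with an adjusted p under 0.05, open circles the other 28, and the dashed line the median of -0.12. All points but that of Lyz2 lie left of 0.

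Most of these genes varied together from array to array, and they varied most among the controls. Each gene was set against its own mean over the 6 arrays, and the median over the 31 genes was taken on each array. It was -0.098, 0.060 and 0.27 in controls 1, 2 and 3 and -0.11, -0.031 and -0.097 in mutants 1, 2 and 3. Control 3 thus stood above all other arrays, and control 1 lay among the mutants. The sample titles carry a further number beside the replicate number. In the order of those numbers control 1 comes before the 3 mutants, and controls 2 and 3 come after them. What those numbers mark is not stated, and their part in the values was not tested. In 25 of 31 genes the highest of the 6 arrays was control 3, as in 20.5% of all genes. In 25 of 31 control 1 was the lowest of the controls, as in 37.3% of all genes. Over the 11614 genes whose mean level lay in the range of these genes, the median deviation was -0.016 in control 1 and 0.012 in control 3. The median over the 31 genes of control 3 minus control 1 was 0.33, which is larger than the median change of -0.12 between mutant and control. Their median SD was 0.18 among controls and 0.089 among mutants, beside 0.082 and 0.061 for all genes.

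The difference between the groups depended on which controls were left in. Without control 1, 12 of the 31 genes were called lower and the median change was -0.20, where 8.68% of all genes were called lower. These 12 were the 3 named above and C1qa, C1qb, Csf1r, Fcrls, Laptm5, P2ry12, P2ry13, Selplg and Tyrobp. The changes of the added genes without control 1 were, in that order, -0.40, -0.53, -0.47, -0.44, -0.35, -0.39, -0.68, -0.28 and -0.52. Without control 3, 2 were called lower, Ly86 and Tmem119, where 5.16% of all genes were, the median change was -0.075, and 23 of 31 changes were negative. Against control 1 alone the median change was 0.020, 14 of 31 changes were negative and 1 gene was called lower, where 4.80% of all genes were. Against control 3 alone the median was -0.35 and 19 genes were called lower, where 6.91% of all genes were. In these last comparisons the lone control array is assumed to vary like the mutant arrays. Leaving out any 1 mutant array left 1 gene called, Tmem119, and the share of all genes called was not counted there.

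**Figure D2:**
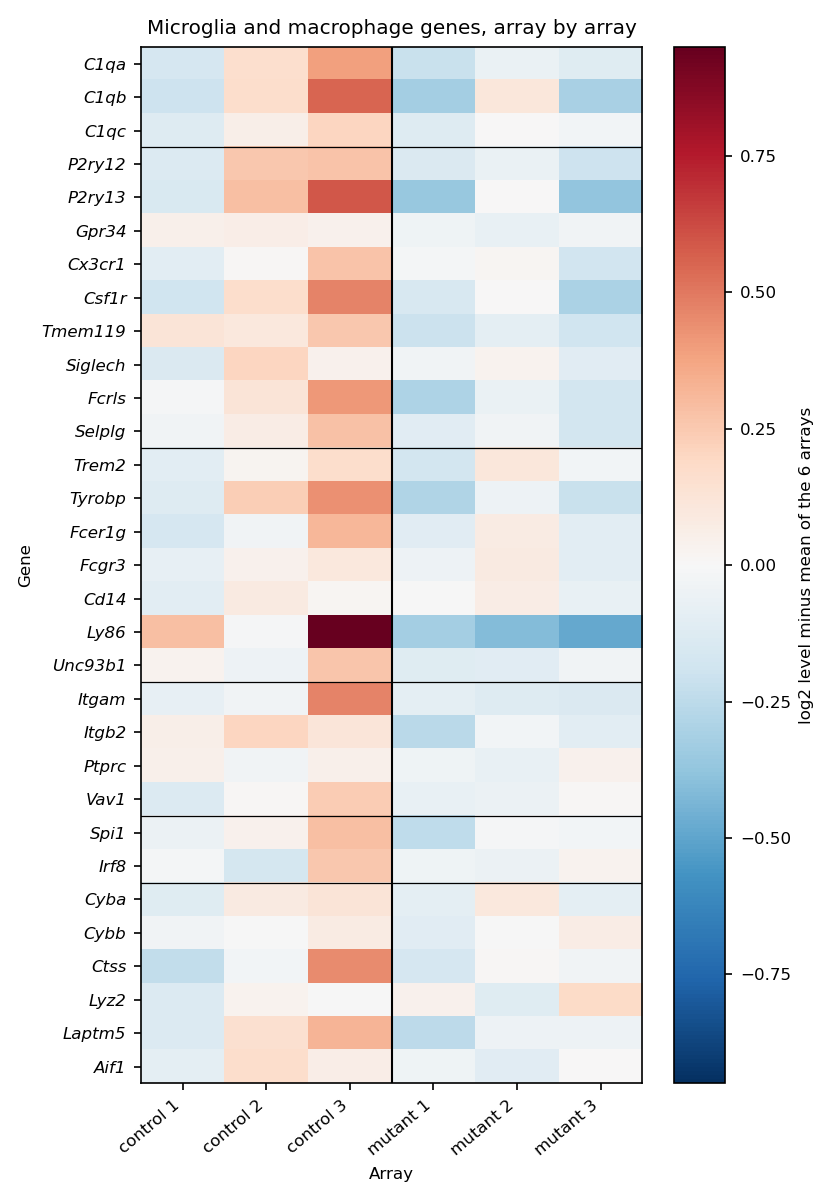
Log2 level of each of the 31 genes (rows, grouped by role) on each of the 6 arrays (columns), minus the mean of that gene over the 6 arrays, in colour from blue (lower) to red (higher). The column of control 3 is the reddest, with the highest value of 25 genes, and the column of control 1 resembles those of the mutants except in Ly86, Tmem119, Itgb2 and a few others.

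The sequence before the start of Ly86, of P2ry13 and of the chains C1qb and C1qc is shown because Ly86 had the most negative change of the 31 genes and the others had the order of controls found in most of the genes, with control 1 lowest and control 3 highest. Of the 32 genes 21 matched an entry of the RefSeq promoter table (GRCm38.p6), with 24 start sites between them. The windows hold the 250 bases before the start site, 5′ to 3′ on the strand of the gene. They lie at chr13:37345095-37345344 on the plus strand for Ly86, chr3:59210883-59211132 on the minus strand for P2ry13, chr4:136886201-136886450 on the minus strand for C1qb and chr4:136892915-136893164 on the minus strand for C1qc. Capitals mark the letters GAGGAA, a core that PU.1 is known to bind, and TGGGC, which the study names as a putative site of Bcl11b, on either strand (TTCCTC and GCCCA on the other).
Ly86: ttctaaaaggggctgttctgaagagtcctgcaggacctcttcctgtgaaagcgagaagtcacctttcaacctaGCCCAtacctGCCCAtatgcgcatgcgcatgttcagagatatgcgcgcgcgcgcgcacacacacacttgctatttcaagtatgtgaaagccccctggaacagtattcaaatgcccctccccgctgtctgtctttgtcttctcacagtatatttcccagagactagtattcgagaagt
P2ry13: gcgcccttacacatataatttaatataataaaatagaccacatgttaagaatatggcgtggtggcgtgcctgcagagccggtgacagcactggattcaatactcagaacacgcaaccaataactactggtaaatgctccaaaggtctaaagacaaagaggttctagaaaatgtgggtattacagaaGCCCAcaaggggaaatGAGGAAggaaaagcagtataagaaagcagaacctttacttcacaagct
C1qb: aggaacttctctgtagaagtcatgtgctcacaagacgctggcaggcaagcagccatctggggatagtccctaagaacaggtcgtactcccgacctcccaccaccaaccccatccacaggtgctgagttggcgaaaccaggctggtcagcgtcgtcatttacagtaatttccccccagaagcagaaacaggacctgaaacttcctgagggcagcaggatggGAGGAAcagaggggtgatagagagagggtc
C1qc: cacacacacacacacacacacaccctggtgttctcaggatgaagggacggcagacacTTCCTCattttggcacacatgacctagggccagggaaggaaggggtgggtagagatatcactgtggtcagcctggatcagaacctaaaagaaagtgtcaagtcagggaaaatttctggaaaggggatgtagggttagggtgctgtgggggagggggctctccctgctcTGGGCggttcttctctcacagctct

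The window of Ly86 held TGGGC at 2 positions and no GAGGAA, that of C1qb GAGGAA at 1 position, and those of P2ry13 and C1qc each motif at 1 position. GAGGAA was found in 13 of the 24 windows, or 54.2%, and in 23.3% of all 32851 windows of the table. By gene it was found in 12 of 21, since the windows of Fcgr3 overlap and each held it. TGGGC was found in 11 of 24, or 45.8%, and in 50.7% of all windows. The motifs cannot share letters with each other, and a match of so few letters is not a binding site. Whether the motifs go with the order of the controls was not tested.

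The C1q chains assemble into the recognition molecule of the classical complement pathway. None of the 3 genes passed the test. C1qb (probe set 10517508) had log2 levels of 7.72, 8.08 and 8.47 in controls 1, 2 and 3 and of 7.59, 8.02 and 7.61 in mutants 1, 2 and 3. Mutant 2 lay above control 1, so the groups overlapped, and the log2 change was -0.35 (limma, SE 0.18, adjusted p = 0.265). C1qa had levels of 6.95, 7.26 and 7.49 in controls and 6.89, 7.04 and 6.99 in mutants, with a log2 change of -0.26 (adjusted p = 0.213 from limma). C1qc had levels of 6.94, 7.12 and 7.27 in controls and 6.94, 7.07 and 7.04 in mutants, with a change of -0.094 (adjusted p = 0.550 from limma). The order of the controls was the same in all 3 genes, with control 1 lowest and control 3 highest. Against control 1 alone the changes were 0.029, 0.020 and 0.074 for C1qa, C1qb and C1qc, and without control 3 they were -0.13, -0.16 and -0.014.

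Of 9 receptors and surface proteins of resting microglia, 1 fell and 8 did not pass the test, where 5.93% of all genes were called lower. Tmem119 (probe set 10532741), a membrane protein by which microglia are told from other macrophages, had log2 levels of 6.85, 6.83 and 6.98 in controls and 6.53, 6.64 and 6.54 in mutants. Every mutant array lay below every control array, control 1 included, and the control arrays were close together. The log2 change was -0.32 (limma, SE 0.063, adjusted p = 0.00951), a fold of 1.25. It passed without any 1 of the 6 arrays, and did not with the methods' t-test (adjusted p = 0.0703). Without control 3 the change was -0.27 (limma adjusted p = 0.0246).

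P2ry12 and P2ry13, receptors for ADP that guide microglial processes, did not pass the test, although P2ry13 had the most negative change after Ly86. Its levels were 7.35, 7.77 and 8.08 in controls and 7.13, 7.49 and 7.12 in mutants, a log2 change of -0.49 (limma, SE 0.17, adjusted p = 0.10). Mutant 2 lay between controls 1 and 2. P2ry12 had levels of 6.63, 7.01 and 7.03 in controls and 6.63, 6.70 and 6.56 in mutants, a change of -0.26 (adjusted p = 0.140 from limma). Here control 1 lay among the mutants and controls 2 and 3 above them. Without control 3 the changes were -0.31 for P2ry13 and -0.19 for P2ry12.

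Csf1r, the receptor on which microglia depend for survival, had levels of 7.72, 8.08 and 8.38 in controls and 7.76, 7.92 and 7.61 in mutants, a change of -0.30 (adjusted p = 0.253 from limma). Cx3cr1, the receptor for the neuronal chemokine Cx3cl1, had levels of 7.73, 7.84 and 8.10 in controls and 7.81, 7.85 and 7.65 in mutants, a change of -0.12 (adjusted p = 0.50 from limma). In Csf1r controls 2 and 3 stood above all mutants, and in Cx3cr1 control 3 alone did. Without control 3 the changes were -0.14 for Csf1r and -0.016 for Cx3cr1. Fcrls, an Fc receptor-like protein of microglia, was lower in every mutant, at 5.30, 5.43 and 5.72 in controls and 5.01, 5.25 and 5.13 in mutants. Its change of -0.35 had an adjusted p of 0.0611 from limma, and was -0.23 without control 3. Gpr34, a lysophosphatidylserine receptor, lay at 4.88 to 4.90 in controls and 4.78 to 4.81 in mutants. Its change was small, at -0.095 (adjusted p = 0.263 from limma), but so was its spread, and it was the only one of the 31 genes that passed the methods' t-test after adjustment (adjusted p = 0.0430), where 2.24% of all genes were called lower. Selplg, a ligand of selectins, had a change of -0.21, and Siglech, a sialic acid-binding lectin, of -0.072.

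Of 7 innate immune receptors and their adaptors, 1 fell, where 5.93% of all genes were called lower. Ly86 (MD-1, probe set 10404606), a secreted protein that binds the toll-like receptor relative Cd180, had log2 levels of 7.74, 7.44 and 8.39 in controls and 7.13, 7.04 and 6.97 in mutants. All mutants lay below all controls, and the controls were far apart, with an SD of 0.49 against 0.081 in mutants. The log2 change was -0.81 (limma, SE 0.20, adjusted p = 0.0261), a fold of 1.76 and the largest decrease of the 31 genes. The order of its controls differed from that of most of these genes, since control 2 and not control 1 was lowest. Without control 3 the change was -0.54 (limma adjusted p = 0.00739), and against control 1 alone it was -0.69. It did not pass without mutant 1, 2 or 3 (adjusted p = 0.0736, 0.0868 and 0.0976 from limma), nor with the methods' t-test (adjusted p = 0.212).

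Trem2, a lipid receptor of microglia, and its adaptor Tyrobp did not pass the test. Tyrobp had levels of 6.59, 6.94 and 7.14 in controls and 6.42, 6.66 and 6.49 in mutants, a change of -0.36 (limma, SE 0.13, adjusted p = 0.10). Trem2 had levels of 6.90, 7.03 and 7.17 in controls and 6.83, 7.11 and 6.98 in mutants, a change of -0.064 (limma, SE 0.090, adjusted p = 0.728). The difference between these changes was not tested. Without control 3 they were -0.24 for Tyrobp and 0.0041 for Trem2. The other adaptor, Fcer1g, had a change of -0.084, and the Fc receptor Fcgr3, which signals through it, of -0.041. Unc93b1, which carries toll-like receptors to endosomes, had a change of -0.17, and the lipopolysaccharide co-receptor Cd14 of -0.0043. None of these passed the test, and the change of Cd14 was the nearest to 0 of all 31 genes.

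Of 4 measured genes of leukocyte adhesion and signaling, 1 fell, where 5.93% of all genes were called lower. Itgb2 (probe set 10364262) encodes the β2 chain that pairs with the αM chain encoded by Itgam to form complement receptor 3. Its log2 levels were 5.46, 5.60 and 5.52 in controls and 5.15, 5.37 and 5.30 in mutants. The groups did not overlap, and the log2 change was -0.25 (limma, SE 0.072, adjusted p = 0.0486), a fold of 1.19 just inside the threshold. Without control 2 or 3 or any mutant array it did not pass, with adjusted p between 0.0522 and 0.172 (limma). Itgam had levels of 6.14, 6.18 and 6.69 in controls and 6.13, 6.09 and 6.08 in mutants, a change of -0.24 (adjusted p = 0.291 from limma). Its control 3 stood far above the other 5 arrays, which lay close together, and without it the change of Itgam was -0.061. Ptprc, the leukocyte phosphatase CD45, had a change of -0.047 and the exchange factor Vav1 of -0.080.

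Neither transcription factor passed the test. Spi1, which directs the macrophage program, had levels of 6.01, 6.11 and 6.35 in controls and 5.82, 6.06 and 6.04 in mutants, a change of -0.18 (adjusted p = 0.287 from limma). Irf8, its partner, had levels of 6.31, 6.16 and 6.59 in controls and 6.28, 6.27 and 6.36 in mutants, a change of -0.047 (adjusted p = 0.828 from limma). In both, control 3 was the highest array, and without it the changes were -0.084 for Spi1 and 0.070 for Irf8.

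The 6 genes of the NADPH oxidase, the lysosome and the cytoskeleton had changes between -0.23 and 0.07, and none passed the test. Laptm5, a lysosomal membrane protein of hematopoietic cells, had levels of 8.20, 8.48 and 8.65 in controls and 8.09, 8.28 and 8.28 in mutants, a change of -0.23 (adjusted p = 0.235 from limma) that was -0.12 without control 3. Ctss, the lysosomal cathepsin S, had levels of 7.52, 7.72 and 8.20 in controls and 7.59, 7.76 and 7.72 in mutants. Its change was -0.12 (adjusted p = 0.682 from limma), and it was 0.072 without control 3. The oxidase subunits Cyba and Cybb had changes of -0.058 and -0.027. Aif1 (Iba1), by which microglia are commonly stained, had levels of 5.0, 5.25 and 5.15 in controls and 5.05, 4.98 and 5.09 in mutants, a change of -0.093 (adjusted p = 0.489 from limma). Lyz2, a lysozyme more typical of peripheral myeloid cells, had levels of 5.11, 5.28 and 5.24 in controls and 5.29, 5.14 and 5.43 in mutants. It shares sequence with its neighbor Lyz1, so its value is uncertain. The genes given by their change alone, from Selplg to Cd14, had adjusted p between 0.136 and 0.981 (limma), and changes between -0.13 and 0.052 without control 3.

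**Figure D3:**
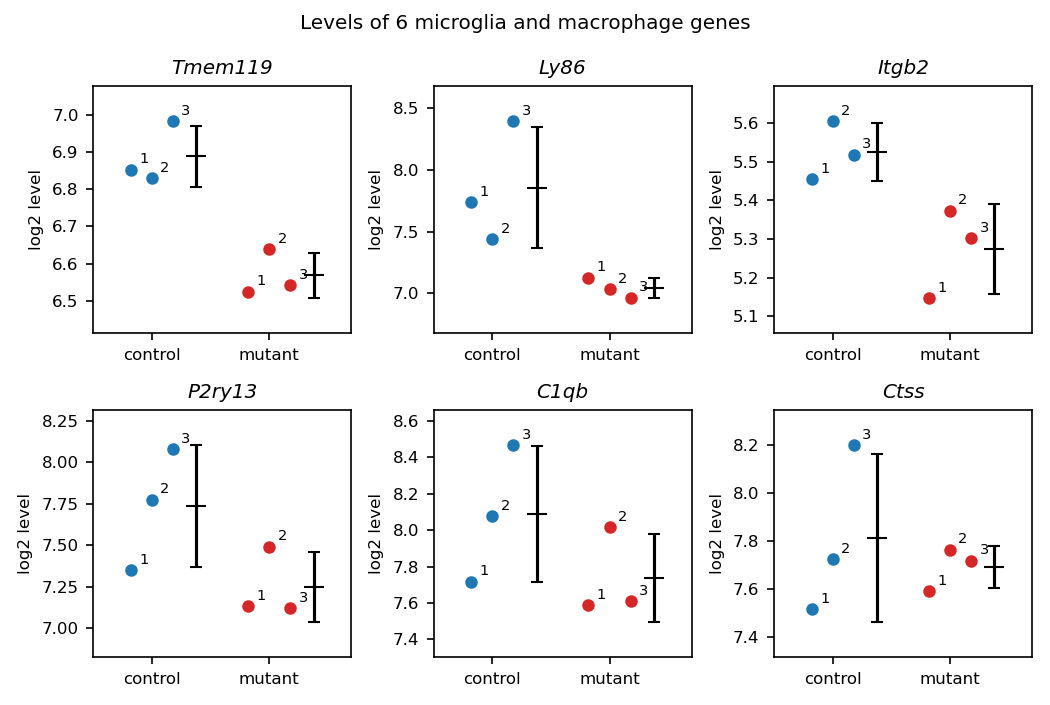
Log2 level of 6 of the genes in each array on the vertical axis, with controls in blue and mutants in red, the array number beside each point, and the mean and SD as bars (n = 3 per group). Tmem119, Ly86 and Itgb2 in the upper row passed the test and their groups do not overlap. P2ry13, C1qb and Ctss in the lower row did not pass, and control 1 lies among the mutants in P2ry13 and C1qb and below them in Ctss, while control 3 is the highest point. The vertical axes do not start at 0 and differ between panels.

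Genes that microglia express but that are outside this set were looked at from further lists. Of 47 other microglia-enriched genes measured, 4 were lower, 1 was higher and 42 did not pass the test, with a median change of -0.026. By the same test 5.93% of all genes were lower and 9.23% higher. The lower genes were Cd68, a lysosomal glycoprotein, with a log2 change of -1.04, Blnk, an adaptor of B cell receptor signaling, with -0.66, Arhgdib with -0.37 and Inpp5d, a lipid phosphatase, with -0.28. The higher gene was Tgfbr1, a receptor for TGF-β, with 0.44. Cd68 had levels of 7.81, 7.44 and 7.41 in controls and 6.37, 6.67 and 6.51 in mutants. Blnk had levels of 7.65, 7.13 and 6.91 in controls and 6.66, 6.65 and 6.42 in mutants. In both, control 1 was the highest array. In Arhgdib (6.43, 6.55 and 6.74 in controls) and Inpp5d (6.43, 6.50 and 6.57) it was the lowest control, as in 32 of the 47 genes (68.1%). The count of lower genes was 8 without control 1, where 8.68% of all genes were, and 3 without control 3, where 5.16% were. It was 2 without mutant 2, 1 without control 2, mutant 1 or mutant 3, and 9 with array weights. The share of all genes was not counted in these last settings. The methods' t-test called 1 lower (Cd68), where 2.24% of all genes were, and 0 higher.

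Of 30 measured genes that rise in activated microglia, 2 were lower and 28 did not pass. Among all genes 5.93% were called lower and 9.23% higher. Gpnmb, a transmembrane glycoprotein of lysosomes, had levels of 9.31, 8.69 and 8.13 in controls and 7.02, 6.89 and 6.63 in mutants, a log2 change of -1.86 (limma, SE 0.25, adjusted p = 0.00134). Lgals3, a galectin, had a change of -0.42 (adjusted p = 0.00244 from limma). Control 1 was again the highest array in both. Mean levels in this list reached 12.17, above the 8.33 of the highest of the 31 genes. Which cells of the layer these values come from was not tested. The methods' t-test called Lgals3 and not Gpnmb (adjusted p = 0.0448 and 0.0756). In the other direction 4 genes of the list were higher in every mutant, as were 17.0% of all genes. A positive change at an unadjusted p under 0.05 was found in 4, and in 3107 of the 19938 genes tested. By limma 0 were called higher, with 1 called without control 3 and 4 with array weights. Cd9, a tetraspanin, and the lipase Lpl did not pass, with changes of 0.33 and -0.76 (adjusted p = 0.0577 and 0.0631 from limma). Of 14 genes of border and perivascular macrophages 0 passed in limma, and 0 had an unadjusted p under 0.05. The methods' t-test after adjustment called Lyve1, with a change of -0.083 and an adjusted p of 0.0377. The next smallest p were those of Ms4a7, Stab1 and Ms4a6c, with changes between -0.094 and -0.082. Of 11 measured markers of lymphocytes and granulocytes 0 passed in limma, with 2 at an unadjusted p under 0.05, and 0 of the 4 with the smallest p, Cd79a, Ms4a1, Mpo and Camp, passed with the methods' t-test. Their changes lay between -0.16 and 0.077.

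Complement genes other than the C1q chains were read from a list of 21, with 18 measured. Of these 3 rose and 15 did not pass, where 9.23% of all genes were called higher and 5.93% lower. Serping1, the inhibitor of the C1 complex that C1q is part of, had levels of 7.77, 7.39 and 7.22 in controls and 9.24, 9.58 and 9.26 in mutants, a log2 change of 1.90 (limma, SE 0.14, adjusted p = 6.01e-05). Cd59a, an inhibitor of the terminal complex, rose by 0.81 on the log2 scale and the complement component C4b by 0.39. C7, a part of the terminal complex, had a change of 0.16 (adjusted p = 0.106 from limma). These genes are not specific to microglia. By limma 0 were called lower, and 1 had a negative change at an unadjusted p under 0.05. The count lower was 1 without control 1 and 2 with array weights. The methods' t-test called Serping1 alone (adjusted p = 0.0306).

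Of 15 ligands and receptors between neurons and microglia, 2 were higher, 1 was lower and 12 did not pass. The shares of all genes were 9.23% higher and 5.93% lower. Cd200, a neuronal surface protein that restrains microglia, had levels of 9.53, 9.02 and 9.17 in controls and 9.90, 9.61 and 9.98 in mutants, a log2 change of 0.59 (limma, SE 0.14, adjusted p = 0.0200). Gas6, a ligand of the phagocytic receptors Axl and Mertk, rose by 0.39 on the log2 scale and Tgfbr2, a receptor for TGF-β, fell by 0.45. Cx3cl1, the ligand of Cx3cr1, was higher in every mutant, at 11.89 to 11.93 in controls and 12.01 to 12.10 in mutants, with a change of 0.16 (adjusted p = 0.0813 from limma). The ligands of Csf1r, Csf1 and Il34, had changes of -0.19 and 0.13 (adjusted p = 0.0980 and 0.331 from limma), and Cd47, a signal that inhibits uptake, of 0.072 (adjusted p = 0.483 from limma). The methods' t-test called 0 of the 15 in either direction, with adjusted p of 0.0564 for Gas6, 0.0829 for Tgfbr2 and 0.183 for Cd200. Without control 2, control 3, mutant 1 or mutant 3, 1 gene was called higher, and with array weights 4 were higher and 2 lower.

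Markers of the other cells of the layer also moved between arrays, and most astrocyte markers had the order of controls found in most of the 31 genes. The limma counts of these lists stand beside shares of 5.93% lower and 9.23% higher among all genes. Of 12 astrocyte markers 2 were higher, Slc1a2 with a log2 change of 0.32 and Gfap with 0.54, and the median deviation of the list was lowest in control 1 (-0.23) and highest in mutant 2 (0.18). Control 1 was the lowest of the controls in 11 of the 12 astrocyte markers, as in 25 of the 31 microglia and macrophage genes. Control 3 was the highest of the controls in 11 of the 12 as well, and in 25 of the 31. The median of control 3 minus control 1 was 0.30 over the astrocyte markers, beside 0.33 over the 31 genes. Of 11 measured oligodendrocyte markers 2 were lower, Ermn with -1.71 and Ugt8a with -0.34, with medians of 0.0069, 0.11 and 0.12 in controls 1, 2 and 3 and between -0.18 and -0.024 in mutants. Of 11 measured markers of endothelial cells and pericytes 2 were higher, Pdgfrb with 0.40 and Flt1 with 0.44, and the median of the list was -0.12 in control 1, -0.0995 in mutant 1 and 0.17 in mutant 2. Of 12 granule cell markers 5 were lower (C1ql2, Trpc6, Calb1, Dsp and Stxbp6, with log2 changes from -3.29 to -0.69) and 2 higher (Npnt and Tdo2, with 0.34 and 1.13), and the medians were 0.24, 0.12 and 0.14 in controls and between -0.22 and -0.085 in mutants. The genes with the next smallest p, Slc1a3, Gjb6, Opalin, Mog, Kdr and Tek, did not pass, with changes from -0.27 to 0.26. The methods' t-test called none of the astrocyte and oligodendrocyte markers (adjusted p of 0.0659 for Slc1a2, 0.147 for Gfap, 0.114 for Ermn and 0.145 for Ugt8a), Pdgfrb among the vascular markers, and 3 lower and 2 higher among the granule cell markers. The lower oligodendrocyte markers were 5 without control 1 and 1 without control 2, control 3 or mutant 3. The higher astrocyte markers were 1 without control 2, and the higher vascular markers 1 without control 3, mutant 2 or mutant 3. The part of these shifts in the values of the microglia and macrophage genes was not tested.

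**Figure D4:**
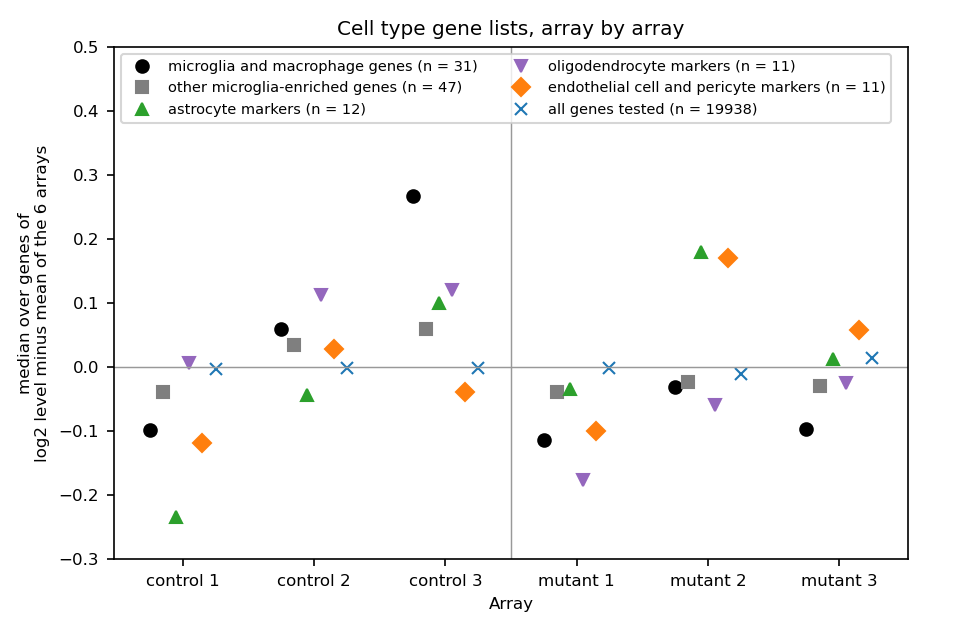
Median over the genes of a list of the log2 level minus each gene's mean over the 6 arrays (vertical axis), for each array (horizontal axis), with 1 symbol per list offset sideways and the number of genes in brackets. The 31 microglia and macrophage genes (black circles) reach 0.27 in control 3 and lie between -0.11 and 0.060 in the other 5 arrays, and all genes tested (crosses) stay within 0.014 of 0.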

How the data were processed

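RNA of the laser-captured granule cell layer was measured in 3 control and 3 mutant samples. The deposited values are log2 levels of 35556 probe sets. Per the labels they come from RMA (background correction, quantile normalization, 1 value per probe set) by Affymetrix Expression Console, whose version is not stated. RMA takes out a shift common to all genes and compresses dim signals. Of the probe sets paired with exactly 1 gene (21789), each of 19938 genes kept the one whose mean over the 6 arrays was highest, with no filter on level. Each of the 31 genes had 1 such probe set. For Itgam, 3 more that also name Rpl35 were left out.

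Mutants were compared with controls in limma 3.58.1 (R 4.3.3, lmFit with eBayes, two-sided, no covariates), and p-values were adjusted by Benjamini-Hochberg over 19938 genes (threshold 0.05). The procedure was tested on simulated data. There genes varied independently and alike in both groups, so the shared variation among the controls described above is not covered. For a single gene, exact permutation of 3 against 3 arrays allows no p under 0.1. It is not stated that each array is 1 animal, so the p-values cover the spread between these samples, which may be technical.

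Genes and lists were chosen with earlier results of these data known, so no list was tested as a whole. The text names the 31 genes, the called genes of each other list and in any case up to 4 with the smallest p, 5 ligands and Bcl11b. Alternatives were the methods' t-test, a mean-variance trend with robust prior, weights for arrays, a minimum mean log2 of 7.06, the mean over probe sets, quantile normalization again, median centring, the replicate number as block, and leaving out arrays.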

Additional observations from a re-analysis of the deposited data

How the results depend on the processing

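The count of 3 lower genes was 2 to 4 with a trend and robust prior (4), the mean of all probe sets (3), renewed quantile normalization (2) and centring on array medians (4). It was 1 with the methods' t-test (Gpr34) and 1 among the 11 genes left by the filter on dim genes (Ly86), 12 with array weights, 1 against control 1 alone (Ly86) and 19 against control 3 alone, and between 1 and 12 when single arrays were left out. No alternative called a gene higher. Against control 2 alone the changes were -0.39 for Ly86, -0.26 for Tmem119 and -0.33 for Itgb2. The median change of -0.12 was 0.020 against control 1 alone and -0.35 against control 3 alone, and lay between -0.20 and -0.075 when single arrays were left out. Array weights and the absence of control 1 gave the same 12 genes. The share of all genes called lower was counted with the methods' t-test, without control 1 or 3, and against control 1 or 3 alone. In the other alternatives, array weights among them, it was not counted, and the share called higher was counted in no alternative. With array weights the count of lower genes also went from 4 to 9 for the other microglia-enriched genes and from 2 to 5 for the oligodendrocyte markers.

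The replicate number as a block gave 6 lower genes, Fcrls, Itgb2, Ly86, P2ry13, Tmem119 and Tyrobp. The share of all genes called with the block was not counted. The correlations of deviations of same-numbered arrays were 0.16, -0.033 and 0.12, and the best match of 4 of the 6 arrays carried the same number. What the numbers mark is not stated, so they were not taken to pair arrays.

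Of 507 values of single genes under 17 alternatives, 413 kept their direction and their side of the threshold, 17 no longer passed, 44 newly passed and 33 changed sign, all of genes that did not pass. Against control 1 alone the changes were 0.0291 for C1qa, 0.0204 for C1qb, 0.0737 for C1qc, 0.0379 for Cx3cr1, 0.0424 for Csf1r, 0.0990 for Siglech, 0.0691 for Trem2, 0.11 for Fcer1g, 0.0568 for Fcgr3, 0.0960 for Cd14, 0.0905 for Vav1, 0.0885 for Cyba, 0.0206 for Cybb, 0.18 for Ctss, 0.0193 for Laptm5 and 0.0445 for Aif1. Against control 2 alone they were 0.00650 for Ptprc and 0.15 for Irf8, with array weights 0.0757 for Irf8 and with renewed quantile normalization 0.0183 for Cd14. With single arrays left out, the changes ranged for Siglech from -0.16 to 0.0121, Cd14 from -0.0545 to 0.0363, Trem2 from -0.13 to 0.00890, Fcer1g from -0.18 to 0.0517, Vav1 from -0.17 to 0.0210, Irf8 from -0.14 to 0.0704, Cybb from -0.0700 to 0.0184, Ctss from -0.27 to 0.0721 and Lyz2 from -0.00150 to 0.14. The cause was not tested. Dim probe sets and 3 arrays a group limit what could be detected.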
